A study of Mus musculus with 6 samples.

Results

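IL-6 and IL-10 family signalling was examined through 8 genes: the ligands Il6, Il10, Lif and Osm and the receptor chains Il6ra, Il6st, Il10ra and Il10rb. They were chosen by name, with earlier results of these data known. Each is held by 1 probe set with a single gene symbol, so all 8 of 8 were measured among 19938 named genes. The samples are bone marrow cells from the tibia and femur of C57B/6 mice, grown with GM-CSF at 20 ng/ml to day 6 and given no further stimulus. By their cell type label 3 arrays are dendritic and 3 are macrophage. Both populations are unstimulated and share strain, tissue, cytokine and culture time. Affymetrix Mouse Gene 1.0 arrays were used, each from 6 ug of total RNA, and the values are the deposited log2 values made with RMA, a method that corrects background, normalizes arrays and summarizes probes. How the populations were separated, the age and sex of the mice, and whether replicates came from separate animals were not stated in the labels. The p-values thus reflect the spread among these arrays alone, part or all of which may be technical.

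Cytokines of the IL-6 family signal through the shared chain gp130, which Il6st encodes. IL-6 first binds its own chain, encoded by Il6ra, while LIF and oncostatin M pair gp130 with the chains encoded by Lifr and Osmr. IL-10 binds a receptor built from the chains of Il10ra and Il10rb, and the Il10rb chain is shared with receptors for IL-22 and the lambda interferons. Both kinds of receptor use Janus kinases and the transcription factor STAT3, yet in myeloid cells IL-6 is known mostly as a product of activated cells, and IL-10 for restraining them.

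Marker genes mostly followed the labels. Of 10 dendritic cell markers 9 were higher in the dendritic population, and all 8 measured macrophage and monocyte markers were lower. The exception, H2-Ab1, did not pass, and with an intensity trend it was called lower (-0.39, limma adjusted p = 0.0126). Irf4, among the 9, lost its call with all probe sets (limma adjusted p = 0.0843) and after repeated quantile normalization (0.0550). It also lost it without dendritic replicate 2 (0.106) or 3 (0.0885). Of 10 granulocyte markers 1 was called (Mpo, -0.74, limma adjusted p = 0.0207). Mpo passed in 9 of 16 alternatives. Its adjusted p was 0.0519 and 0.0795 without dendritic replicate 1 or 2, 0.0611 and 0.0740 without macrophage replicate 1 or 3, 0.0816 without both arrays numbered 1, 0.0558 with all probe sets and 0.0858 with array weights. Their mean log2 level was 7.07 in dendritic replicate 1 and 7.34 in macrophage replicate 1, against 6.35 to 6.62 in the other 4 arrays. None of 10 stromal and endothelial markers and none of 10 mast cell and basophil markers passed in limma (0 and 1 at an unadjusted p under 0.05), with mean levels of 4.18 to 4.53 and 4.12 to 4.23 in the dendritic and 4.24 to 4.47 and 3.91 to 4.15 in the macrophage arrays. Of 9 T, B and NK cell markers 2 were higher in the dendritic population (Cd8a and Cd79a, the latter not without dendritic replicate 2, adjusted p = 0.0545, or macrophage replicate 2, 0.0506), with mean levels of 4.21 to 4.42 against 3.87 to 3.92. Of 6 measured erythroid and platelet markers 1 was lower (Ppbp), with mean levels of 4.53 to 4.93 against 5.09 to 5.38. The deposited values hold no zeros and no detection calls, and array medians over all probe sets were 4.79 to 4.96.

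Among the members that passed, ligands and receptor chains went opposite ways. In the dendritic population 3 of 4 ligands (Il6, Lif, Osm) were higher and none was lower, while 3 of 4 receptor chains (Il6ra, Il10ra, Il10rb) were lower and none was higher. Il10 and Il6st did not pass. The rest of both families did not show this split: of 20 other measured ligands and receptors 1, a receptor chain, was higher and none was lower. A gene was called at a Benjamini-Hochberg adjusted p under 0.05 in limma, fitted over all genes, a threshold that 21.6% of all genes passed (9.98% higher and 11.6% lower in the dendritic population). The same 6 members had values that did not overlap between the populations, as did 34.0% of all genes. Calls were more frequent among bright genes. In a fit of the 9969 genes over the median of level, which held Osm and the receptor chains, 4047 were called, 1840 higher and 2207 lower. The median difference, dendritic minus macrophage on the log2 scale, was 1.47 for the ligands and -0.96 for the receptor chains, beside 0.03 for all genes. These are bulk samples, so fewer cells of a type and less RNA per cell cannot be told apart.

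**Figure D1:**
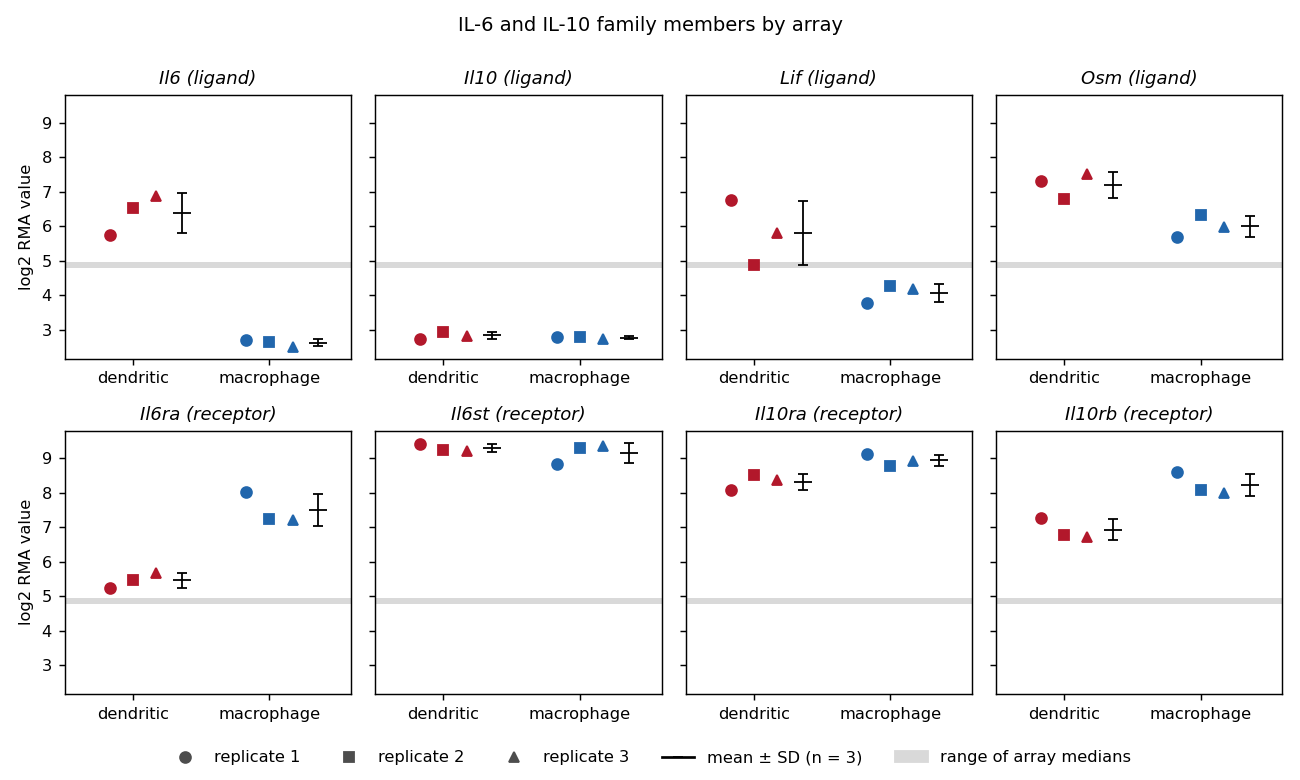
Log2 RMA value of each member (y axis) in the dendritic and macrophage arrays (x axis). Each symbol is an array with its replicate number, the bar beside it is the mean ± SD (n = 3) and the grey band spans the medians of all probe sets on the arrays (4.79 to 4.96). Il6, Lif and Osm lie higher in every dendritic array than in any macrophage array, Il6ra, Il10ra and Il10rb lie lower, and Il10 and Il6st overlap.

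RefSeq promoters (build GRCm38.p6) were matched for 4 of the 8 members, Il6, Lif, Il6ra and Il6st. The 250 bases before the start of the ligand genes Il6 and Lif are shown because both genes were higher in the dendritic population. They lie at chr5:30012864-30013113 (plus strand) and chr11:4257318-4257567 (plus strand), and capitals mark matches to the motifs searched.
Il6: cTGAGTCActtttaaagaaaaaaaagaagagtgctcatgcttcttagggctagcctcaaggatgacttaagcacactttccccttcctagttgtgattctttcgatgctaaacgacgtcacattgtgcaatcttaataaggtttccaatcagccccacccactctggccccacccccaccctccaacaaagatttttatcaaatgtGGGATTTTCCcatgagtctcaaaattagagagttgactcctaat
Lif: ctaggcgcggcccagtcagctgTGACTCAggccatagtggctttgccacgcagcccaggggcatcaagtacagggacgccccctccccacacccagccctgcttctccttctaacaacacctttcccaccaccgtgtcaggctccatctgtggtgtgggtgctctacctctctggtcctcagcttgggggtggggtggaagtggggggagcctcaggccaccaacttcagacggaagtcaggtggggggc

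Each promoter was searched on both strands for an AP-1 motif (TGANTCA), a STAT motif (TTCNNNGAA), where N is any base, and an NF-kB motif of 10 bases, and no matches overlap. Of the 4 members the AP-1 motif was in the Il6 and Lif windows and not in those of Il6ra and Il6st. It was in 6.75% of 32851 RefSeq promoter windows of the same length. In Il6 it lay 249 to 243 bases before the start, and in Lif 228 to 222 bases before it. Of the 4 members the NF-kB motif was in the Il6 window only, as GGGATTTTCC at 44 to 35 bases before the start, and in 0.356% of all windows. No window of the 4 members held the STAT motif, which 7.02% of all windows held. A match describes the letters of the window and not a bound site.

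Il6, which encodes the inflammatory cytokine interleukin-6, had the largest difference of the members. Its log2 values (probe set 10520452) were 5.74, 6.52 and 6.88 in dendritic replicates 1 to 3 and 2.72, 2.64 and 2.52 in the macrophage arrays. All macrophage arrays lay below the array median and all dendritic arrays above it, with a gap of 3.02 between the lowest dendritic and the highest macrophage value. The difference was 3.75 ± 0.26 (SE, n = 3 per population), or 13.5-fold, with a limma adjusted p of 1.11e-05. Only 0.176% of all genes had a difference as large in this direction. Because RMA shrinks differences among dim probe sets, this fold belongs to the RMA scale and should not be read as a ratio of transcripts.

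Lif, which encodes the leukaemia inhibitory factor, followed. Its log2 values (probe set 10373918) were 6.75, 4.88 and 5.80 in the dendritic arrays and 3.77, 4.27 and 4.17 in the macrophage arrays. The dendritic arrays were widely spread, with an SD of 0.93 against 0.26 in the macrophage arrays, and the lowest of them, replicate 2, stood 0.62 above the highest macrophage array. The difference was 1.74 ± 0.39 (3.34-fold, limma adjusted p = 0.0115), with a 95% interval from 0.85 to 2.63. All macrophage values lay below the array median, so this fold too holds on the RMA scale only. Dendritic replicate 1, with the highest granulocyte marker level of its population, held the highest Lif value of that population, while macrophage replicate 1, with the highest granulocyte level of all, held the lowest Lif value of its own. Without both arrays numbered 1, a setting chosen after seeing the data, the Lif difference was 1.12 (adjusted p = 0.0134).

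Osm, which encodes oncostatin M, was higher in the dendritic population by a smaller amount. The log2 values (probe set 10373912) were 7.30, 6.78 and 7.51 against 5.69, 6.32 and 5.99. All 6 arrays lay above the array median, and the populations were 0.47 apart at their nearest values. The difference was 1.20 ± 0.22 (2.30-fold, limma adjusted p = 0.00381). Osm and Lif are next to each other on chromosome 11 in the RefSeq gene order.

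Il10, which encodes the inhibitory cytokine interleukin-10, was dim in both populations. Its log2 values (probe set 10349603) were 2.75, 2.94 and 2.84 in the dendritic arrays and 2.80, 2.80 and 2.73 in the macrophage arrays, all well below the array median. The populations overlapped, with a difference of 0.07 ± 0.12 (limma adjusted p = 0.820) and a 95% interval from -0.20 to 0.34. At this level the array cannot show whether the gene was transcribed at all.

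Among the receptor chains, Il6ra had the largest difference. This gene encodes the chain that gives a cell its own response to IL-6. The log2 values (probe set 10499655) were 5.24, 5.48 and 5.67 in the dendritic arrays and 8.03, 7.24 and 7.20 in the macrophage arrays, so the nearest values were 1.53 apart. The difference of -2.03 ± 0.23 (4.07-fold lower in the dendritic population, limma adjusted p = 0.000228) was as large or larger in this direction in 1.99% of all genes. Of the arrays with high granulocyte marker levels, macrophage replicate 1 held the highest Il6ra value of its population and dendritic replicate 1 the lowest of its own. Without both arrays numbered 1 the difference was -1.64 (adjusted p = 4.72e-05).

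Il6st, the gene of gp130, was bright in both populations. Its log2 values (probe set 10407173) were 9.41, 9.23 and 9.21 in the dendritic arrays and 8.82, 9.30 and 9.34 in the macrophage arrays. The difference was 0.13 ± 0.16 (limma adjusted p = 0.715), and the 95% interval from -0.24 to 0.51 leaves room for a difference of that size either way. The low macrophage value was that of replicate 1, and without that array the sign turned (-0.036, adjusted p = 0.944).

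Both IL-10 receptor chains were lower in the dendritic population. Il10rb (probe set 10436841) had log2 values of 7.28, 6.78 and 6.72 in the dendritic arrays and 8.59, 8.08 and 7.99 in the macrophage arrays. Replicate 1 was the highest array in each population, and the populations did not overlap. The difference was -1.29 ± 0.21 (2.45-fold lower, limma adjusted p = 0.00176), and without both arrays numbered 1 it was -1.28 (adjusted p = 0.000152).

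Il10ra, whose chain binds IL-10 itself, differed least of the called members. The log2 values (probe set 10593050) were 8.06, 8.50 and 8.35 in the dendritic arrays and 9.11, 8.77 and 8.91 in the macrophage arrays. The populations were 0.27 apart, with a difference of -0.62 ± 0.16 (1.54-fold lower, limma adjusted p = 0.0186). A difference this large or larger in this direction was held by 10.3% of all genes. It did not pass once macrophage replicate 1 (-0.54, adjusted p = 0.0589), macrophage replicate 3 (-0.63, adjusted p = 0.0552) or both arrays numbered 1 (-0.42, adjusted p = 0.0610) had been left out. Over the alternatives its adjusted p ranged from 0.0114 to 0.0610. Of the called members Il10rb was the one whose value was highest in replicate 1 of both populations, as the granulocyte marker level was. The part of granulocyte RNA in the results was not tested. The values without both arrays numbered 1 do not measure it, because they drop everything particular to those arrays.

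**Figure D2:**
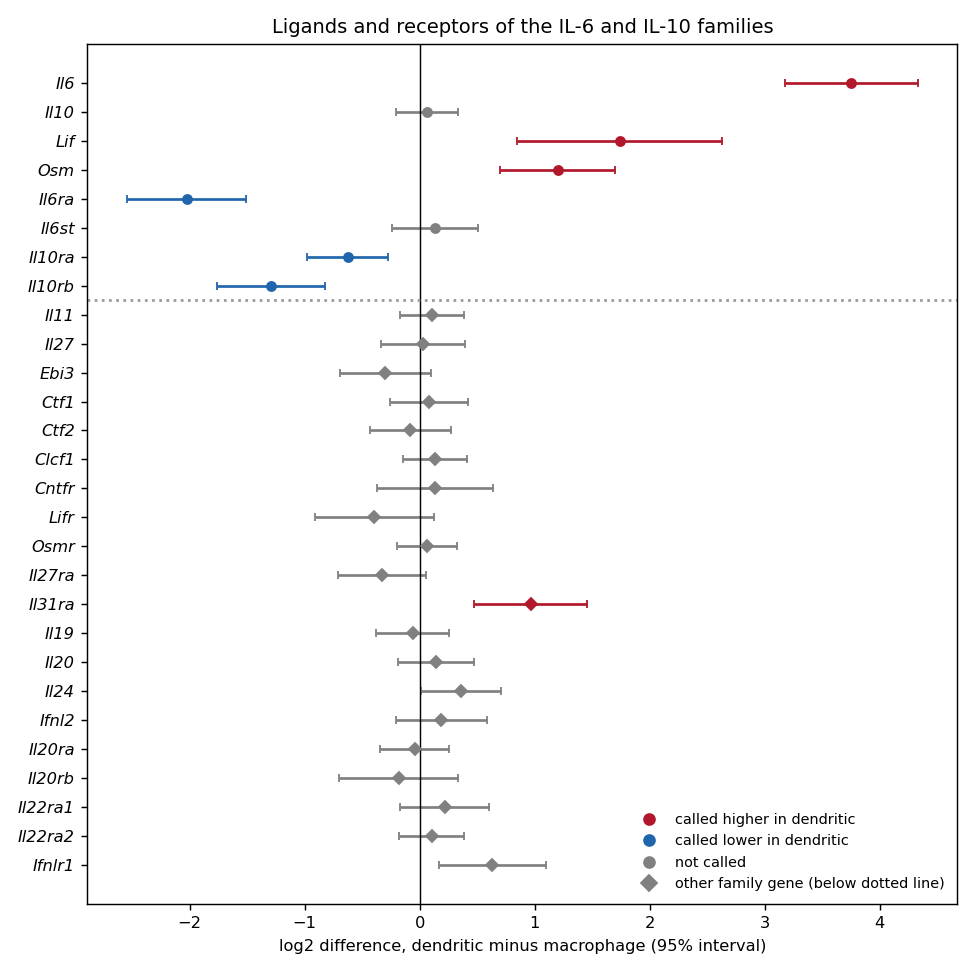
Log2 difference, dendritic minus macrophage (x axis), with its 95% interval for the 8 members (circles) and the 20 other measured ligands and receptors of both families (diamonds, below the dotted line). Red marks genes called higher in the dendritic population, blue genes called lower and grey genes not called. Of the other family genes Il31ra, at 0.97, is the one called.

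The rest of the 2 families was mostly dim and differed little. Of 26 other ligands and receptors 20 were measured, of which 1 was higher, none was lower and 19 did not pass, with a median difference of 0.09. The higher gene was Il31ra, the IL-31 receptor chain, which lies next to Il6st on chromosome 13 (probe set 10412126). Its log2 values were 4.86, 4.17 and 3.96 in the dendritic arrays and 3.30, 3.46 and 3.34 in the macrophage arrays. The difference was 0.97 ± 0.22 (limma adjusted p = 0.0112), with only dendritic replicate 1 reaching the range of the array medians.

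The partner chains for LIF and oncostatin M lay below the array medians in every array. Lifr had a mean of 4.03 ± 0.19 (SD, n = 3) in the dendritic arrays and 4.42 ± 0.47 in the macrophage arrays, a difference of -0.39 (limma adjusted p = 0.312). It was called without macrophage replicate 1 (-0.66, adjusted p = 0.0205), without both arrays numbered 1 (-0.62, adjusted p = 0.0222) and with array weights (-0.63, adjusted p = 0.0320), within a range of 0.0205 to 0.714. Osmr was at 3.62 ± 0.06 and 3.56 ± 0.02 and differed by 0.07 (adjusted p = 0.811). The lambda interferon receptor chain Ifnlr1, a partner of the Il10rb chain, had non-overlapping values but did not pass, with a difference of 0.63 ± 0.21 (limma adjusted p = 0.0588). It passed without dendritic replicate 3 (0.79, adjusted p = 0.0351) and in the fit blocked on the replicate number (adjusted p = 0.0373). It also passed after centring on the 75th percentile (0.69, adjusted p = 0.0273) and over the 30th percentile of level (adjusted p = 0.0487). The range over its alternatives was 0.0273 to 0.173.

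Within the cell, several carriers of the receptor signal were higher in the dendritic population. Of 12 measured Janus kinases, STATs and adaptors 4 were higher, 2 lower and 6 did not pass (median difference 0.09). For this list and those that follow, the shares over all genes were 9.98% higher and 11.6% lower. Bright genes passed more often: in the fit over the median of level, 4047 of 9969 genes were called. Stat3, the transcription factor that both receptor kinds activate, had log2 values of 9.73, 9.28 and 9.37 in the dendritic arrays and 8.17, 7.998 and 8.05 in the macrophage arrays. It differed by 1.39 ± 0.15 (limma adjusted p = 0.000166). Jak2 was higher by 2.12 ± 0.27 (adjusted p = 0.000421) and Stat5a by 0.99 ± 0.19, genes that GM-CSF receptors also use. The kinases tied to the IL-10 receptor chains, Jak1 and Tyk2, were looked at after their values were seen. Tyk2 was higher by 0.73 ± 0.15 (limma adjusted p = 0.00761), and Jak1 differed by -0.19 (adjusted p = 0.572). The adaptors Gab1 (-1.93 ± 0.32) and Gab2 (-0.71 ± 0.13), which link receptors to other kinase pathways, were lower.

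Inhibitors of the receptor signal were higher more often than lower. Of 17 measured 8 were higher, 1 was lower and 8 did not pass, with a median difference of 0.53. Among the higher genes Socs1 passed in 11 of 16 alternatives (limma adjusted p up to 0.141) and Pias1 in 10 of 16 (up to 0.128). All 17 exceeded the array medians in at least 1 array, a level at which calls are more frequent. The ubiquitin ligase gene Cblb had the largest difference, at 10.72 ± 0.11 (SD, n = 3) in dendritic arrays against 7.29 ± 0.18 in macrophage arrays (3.44 ± 0.14, limma adjusted p = 6.55e-07). Socs2 (1.93 ± 0.29) and Usp18 (1.69 ± 0.20), an inhibitor of interferon receptors, were also higher, and Socs6 was lower (-1.76 ± 0.25). Socs3, the inhibitor that binds gp130 and is itself induced through STAT3, overlapped between the populations. Its log2 values were 5.69, 6.30 and 6.76 in the dendritic arrays and 5.86, 6.58 and 6.44 in the macrophage arrays. The difference was -0.04 (limma adjusted p = 0.963), with a 95% interval from -0.67 to 0.59.

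Genes of IL-6 receptor shedding, by which the IL-6 receptor chain is cut from the cell surface, were lower where they differed, with 1 exception. Of 8 measured 3 were lower, 1 was higher and 4 did not pass (median difference -0.39). The sheddase gene Adam17 had log2 values of 7.45, 7.19 and 7.25 in the dendritic arrays and 9.48, 8.88 and 8.71 in the macrophage arrays. It differed by -1.73 ± 0.20 (3.31-fold lower, limma adjusted p = 0.000273), and Iqsec1 by -0.71 ± 0.14 (adjusted p = 0.00522). The second sheddase gene, Adam10, differed by -0.96 ± 0.28 (limma adjusted p = 0.0373). Adam10 no longer passed without dendritic replicate 2 (-0.91, adjusted p = 0.120) or 3 (-0.73, adjusted p = 0.128), nor without macrophage replicate 1 (-0.74, adjusted p = 0.0999) or 2 (-1.04, adjusted p = 0.0667). The call was also lost when all probe sets were tested (0.0982), within a range of 0.000770 to 0.128.

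The higher gene of the shedding list was Frmd8 (0.47 ± 0.13, limma adjusted p = 0.0279), whose product stabilizes the sheddase complex. It lost its call without dendritic replicate 1 (0.44, adjusted p = 0.0514) or 3 (0.41, adjusted p = 0.106). It also lost it without macrophage replicate 1 (0.46, adjusted p = 0.0680), 2 (0.46, adjusted p = 0.110) or 3 (0.48, adjusted p = 0.0731). Without both arrays numbered 1 its adjusted p was 0.0669 and with all probe sets 0.0502, within a range of 0.00685 to 0.110.

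**Figure D3:**
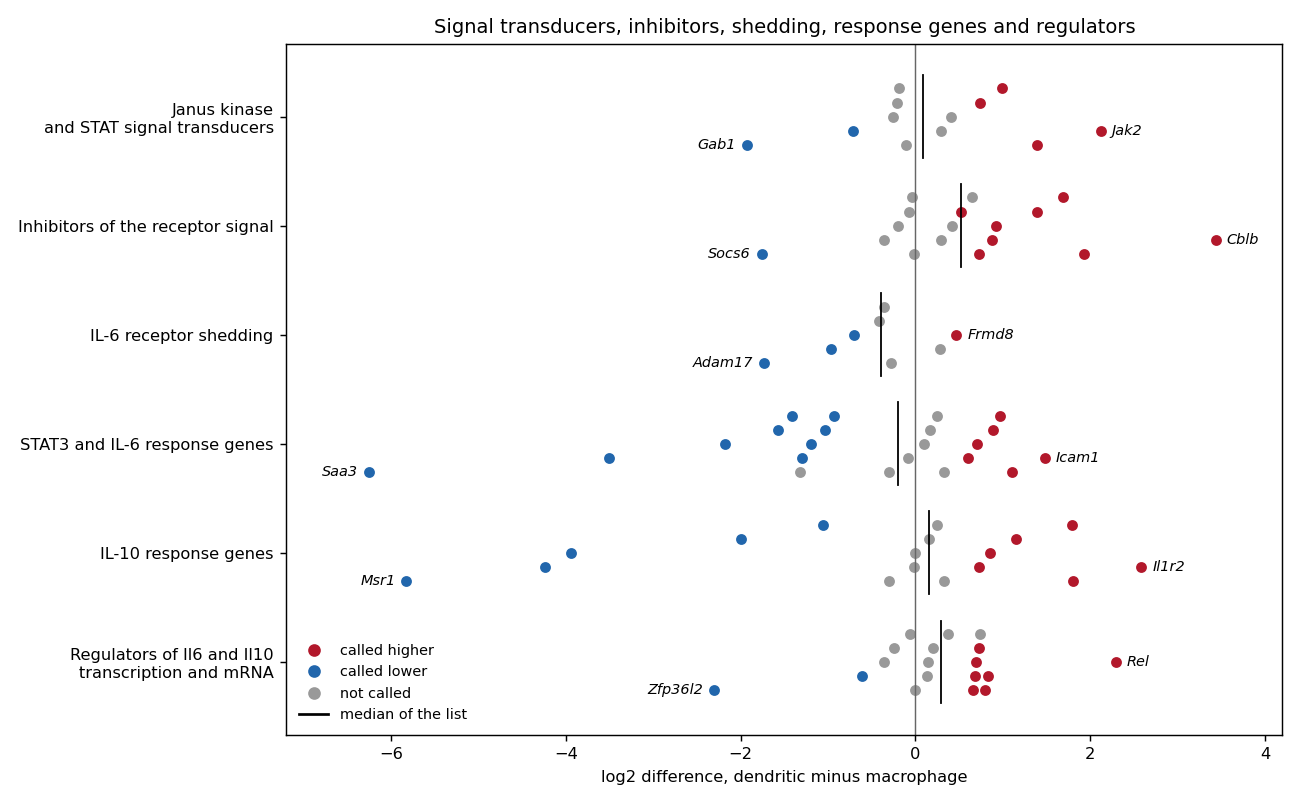
Log2 difference, dendritic minus macrophage (x axis), of each measured gene in the 6 lists of signal transducers, inhibitors, shedding, response genes and regulators (y axis, with points spread vertically for legibility). Red and blue mark genes called higher and lower in the dendritic population, grey genes not called, and the black line is the list median. The medians lie between -0.39 and 0.53, with called genes on both sides of 0 in every list.

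Response genes moved both ways. Of 22 genes known to respond to STAT3 or IL-6 6 were higher, 9 lower and 7 did not pass (median difference -0.20). Among the higher genes Pim1 passed in 10 of 16 alternatives and Junb in 13 of 16. The adhesion molecule gene Icam1 (1.48 ± 0.14), the IL-4 receptor chain Il4ra (1.10 ± 0.16) and the repressor Bcl6 (0.97 ± 0.13) were the highest. The acute-phase genes Saa3 (-6.25 ± 0.27) and Hp (-3.51 ± 0.56) and the transcription factor Cebpb (-2.18 ± 0.20) were the lowest. All 6 had a limma adjusted p of 0.00179 or less. Saa3 lay below the array median in every dendritic array (3.50 to 4.63), so the size of its difference is uncertain. Hp was highest in macrophage replicate 1, the array with the highest granulocyte marker level (10.52, against 8.12 and 8.47 in replicates 2 and 3). Without both arrays numbered 1 the Hp difference was -3.05 (limma adjusted p = 1.76e-05). A part of granulocyte RNA in it was not tested.

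The IL-10 response list also held genes called in both directions. Of 17 measured genes 6 were higher, 5 lower and 6 did not pass (median difference 0.15). The decoy receptor Il1r2 (2.59 ± 0.48), the repressor Etv3 (1.80 ± 0.16) and the NF-kB inhibitor Tnfaip3 (1.79 ± 0.18) were higher. The scavenger receptor Msr1 (-5.83 ± 0.20), the IgG receptor Fcgr1 (-4.24 ± 0.15) and the heme oxygenase Hmox1 (-3.95 ± 0.32) were lower. All 6 had a limma adjusted p of 0.00408 or less. Msr1 and Fcgr1 were near or below the array median in the dendritic arrays (at most 4.57 and 4.83), so the size of their differences is uncertain. Fcgr1 was also on the list of macrophage markers, all 8 of which were lower.

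Of the regulators of Il6 and Il10, 7 of 18 measured were higher, 2 lower and 9 did not pass (median difference 0.29). The NF-kB subunit gene Rel had log2 values of 10.66, 10.64 and 10.55 in the dendritic arrays and 8.59, 8.14 and 8.25 in the macrophage arrays. It differed by 2.29 ± 0.15 (limma adjusted p = 7.83e-06). Zfp36 (0.83 ± 0.18), whose product destabilizes cytokine mRNAs, and the aryl hydrocarbon receptor Ahr (0.79 ± 0.18) were higher too. The related mRNA-binding protein gene Zfp36l2 was lower (-2.30 ± 0.12), as was Maf (-0.62 ± 0.14, adjusted p = 0.0116), a transcription factor of Il10.

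The genes whose values most resembled those of the called members across the 6 arrays are given as a description. A difference in the direction of the member follows from this choice and is no separate result. Gcn1 (0.33, limma adjusted p = 0.117), Pdap1 (0.25, 0.222) and Lca5 (-0.31, 0.120) did not pass, while the others did. For Il6 the most alike genes were Mllt6, Batf3 and Zfp366, with Pearson r between 0.998 and 0.999. Batf3, a transcription factor of dendritic cells, was higher by 2.68 ± 0.17. For Lif they were Gcn1, Ap3b1 and Pdap1 (r from 0.993 to 0.997), and for Osm Atp10a, Prrg4 and Sh2d4a (0.990 to 0.995). The patterns nearest to Il6ra were those of Mctp1, Rrbp1 and Unc119 (0.997 to 0.998). Those nearest to Il10ra were Tnfsf14, Lca5 and Sgf29 (0.993 to 0.996), and those nearest to Il10rb were Mpeg1, Tmem147 and Vkorc1 (0.998 each). Mpeg1, which encodes a pore-forming protein of macrophages, differed by -2.31 ± 0.34. For the uncalled Il10 (Slc25a54, Spata45, Hspb9, r from 0.984 to 0.997) and Il6st (Oog4, Cks1b, Nlrp14, r from 0.975 to 0.979) the likeness is to small deviations between arrays. The arrays share one normalization, and with 6 points and 19938 genes high values of r are plentiful.

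**Figure D4:**
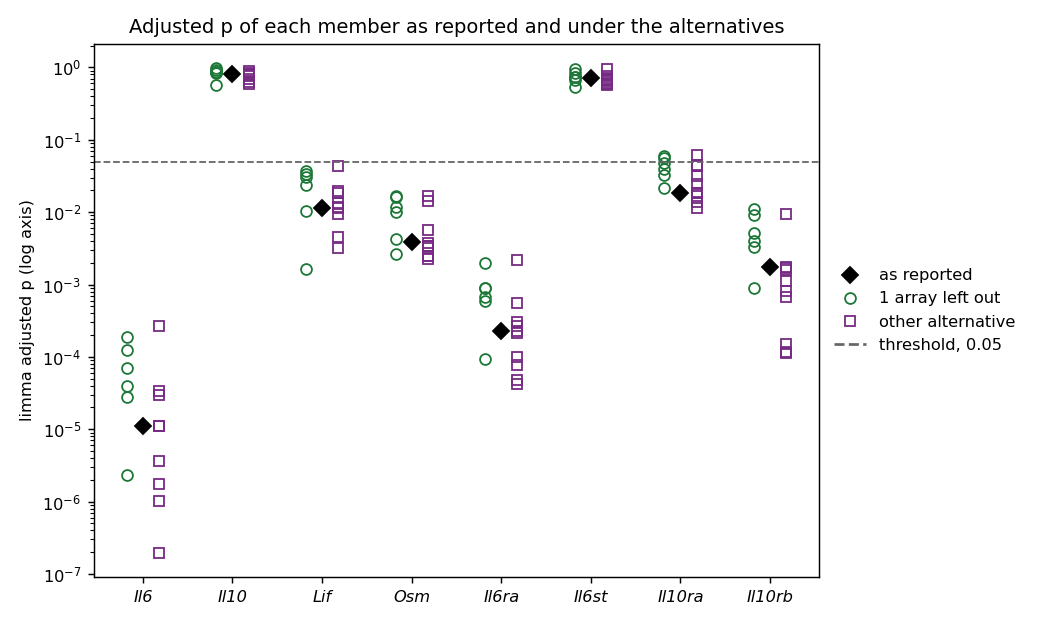
Limma adjusted p (y axis, log axis) of each member (x axis) as reported (black diamonds), with 1 array left out (green circles) and under the other alternatives (purple squares). The dashed line is the threshold of 0.05. The values of Il10ra straddle the line (0.0114 to 0.0610), those of Il10 and Il6st stay above it, and those of the other 5 members stay below it.

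Il6, Lif, Osm, Il6ra and Il10rb were called under every alternative in which they were tested. The adjusted p of Lif came closest to the threshold, at 0.0435 when all probe sets were tested. The other 4 reached at most 0.0168 (Osm).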

How the data were processed

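Gene expression was measured on 6 Affymetrix arrays, 3 per population. The deposited values are log2 expression values per probe set, made by the authors with RMA in R 3.0.2, per the submitters' processing notes. Neither the set of arrays given to RMA nor a probe set filter is recorded in the labels. The platform's annotation named the 35556 probe sets: 21789 held 1 symbol, 1621 several and 12146 none. Symbols were checked by Entrez identifier against RefSeq genes of GRCm38.p6 (21698 found, 0 changed). The probe set with the highest mean stood for each of 19938 genes, 999 of which had several; each member has 1.

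Limma 3.58.1 (lmFit, eBayes, 2-sided) in R 4.3.3 was fitted to all genes with a term for population alone, Benjamini-Hochberg adjustment and dim genes kept. The fit was tested on simulated data. At log2 differences of 0.5, 1 and 2 it recovered 1 of 67, 35 of 67 and 61 of 66 changed genes, with 3 false calls. Genes that did not pass may thus still differ by such small amounts. Far fewer genes were changed there than were called here, which makes the adjusted threshold stricter. The number of arrays limits the precision. Tables and figures were made with Python 3.11.15, pandas 2.3.3 and matplotlib 3.10.9.

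The members and the lists of pathway and marker genes were chosen with earlier results of these data known, and no test was made over a list. Of 126 entries in 10 pathway lists, those without a probe set of a single symbol were not analysed here. Named are all members, up to 3 called genes per list and direction with the largest difference, and the 3 genes most alike each member by Pearson r, leaving out predicted, small RNA, olfactory and vomeronasal genes. Others (Lifr, Osmr, Ifnlr1, Jak1, Tyk2, Socs1, Socs3, Pias1, Pim1, Junb, Nfkbiz, markers and chromosomal neighbours) fall outside this rule and were picked after their values were seen. Same-numbered arrays deviated together (r = 0.385, 0.147 and 0.272 for numbers 1 to 3, all over 0.1). So did dendritic 2 with macrophage 3 (0.155) and dendritic 3 with macrophage 2 (0.128). The reported fit does not pair the arrays, and the replicate number was used as a block in an alternative only. Alternatives were the replicate block, repeated quantile normalization, centring on the 75th percentile, filters on dim genes, all probe sets, mean of probe sets, array weights, an intensity trend, and leaving out each array or both numbered 1.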

Additional observations from a re-analysis of the deposited data

How the results depend on the processing

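Over 16 alternatives the number of genes called ranged from 3311 to 5901 (4312 as reported), and 4 to 6 members were called. With 1 array left out, 3311 to 4625 genes and 5 or 6 members were called. Leaving out genes under the median of level left 1 member called higher, because Il6, Lif and Il10 were then not tested. Il10 was also not tested over the 30th percentile. Of the recomputed member differences 118 kept direction and side of the threshold. The call of Il10ra was lost in 3 more, given above. The sign of Il6st, never called, turned with array weights (-0.012), without macrophage replicate 1 (-0.036) and without both arrays numbered 1 (-0.099), and ranged from -0.036 to 0.23 with 1 array left out. The cause was not tested. With the replicate number as a block 5207 genes were called, and the same 6 members were called. Of the members and pathway genes named above the block changed the call of Ifnlr1 only. Without detection calls, values below the array medians (Il10 in all arrays, Il6 and Lif in the macrophage arrays) cannot be told from background.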

Other observations

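The 4 genes on each side of a member were read from the RefSeq gene order (GRCm38.p6). Of 55 measured neighbours 19 (34.5%) were called, beside 21.6% of all genes. Of the 39 neighbours of called members 7 were called in the direction of the member and 6 against it: Hadha by Il6, Adar by Il6ra, Scn2b, Scn4b and Dscaml1 by Il10ra and 4932438H23Rik by Il10rb. The neighbours described next were singled out after their values were seen. On chromosome 11 the 4 consecutive genes Tbc1d10a, Castor1, Osm and Lif were all higher in the dendritic population. Castor1, which encodes an arginine sensor of the mTOR pathway, differed by 2.25 ± 0.36 (limma adjusted p = 0.00174) and Tbc1d10a by 0.67 ± 0.13 (0.00447). The next gene on either side did not pass, with Sf3a1 at 0.04 (adjusted p = 0.945) and Hormad2 at 0.10 (0.695).

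The IL-10 family ligands Il24, Il20 and Il19 lie directly beside Il10 on chromosome 1. None of the 3 passed in limma (1, Il24, had an unadjusted p under 0.05), with differences of 0.36 ± 0.15, 0.14 ± 0.15 and -0.06 ± 0.14. Beside Il10rb on chromosome 16 lie the interferon receptor genes Ifnar2, Ifnar1 and Ifngr2. Ifnar2 was lower in the dendritic population (-0.45 ± 0.13, limma adjusted p = 0.0344), while Ifnar1 (-0.39 ± 0.18, adjusted p = 0.191) and Ifngr2 (-0.39 ± 0.14, adjusted p = 0.0888) did not pass.

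Nfkbiz, which encodes a nuclear cofactor known to induce Il6, had log2 values of 6.42, 7.83 and 8.09 in the dendritic and 7.10, 6.64 and 6.38 in the macrophage arrays. It differed by 0.74 ± 0.39 and did not pass (limma adjusted p = 0.262). Dendritic replicate 1 was the lowest of its population in both Nfkbiz and Il6, but also in other genes such as Socs1, Socs3 and Stat5a. A link between Nfkbiz and Il6 was not tested. Without dendritic replicate 1 Nfkbiz differed by 1.25 (limma adjusted p = 0.00365), and without both arrays numbered 1 by 1.45 (0.000217). With array weights it differed by 1.15 (0.00647), and its adjusted p ranged from 0.000217 to 0.632.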
